A study of Rattus norvegicus with 20 samples.

Results

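Rat neural stem cells kept under a Wnt/β-catenin stimulus for 3 d were set against cells of the same day that had no stimulus. This comparison holds 5 of the 20 libraries of the series. The stimulated arm (3 d ON) has 3 libraries, all from cells that carry optoWnt, with 1 library each under CHIR99021, Wnt3a at 100 ng/mL and light. The unstimulated arm has 2 libraries of day 3, 1 from wild-type and 1 from optoWnt cells. All cells are adult hippocampal neural stem cells of the Fisher 344 strain, a culture model. Those with optoWnt were transduced and then selected with puromycin, and no label says that they come from 1 clone. The treatment protocol gives basal medium with N-2 supplement and 0.5% serum for the stimulation. The labels give the CHIR99021 concentration as 3 mM, a unit that could not be checked here. The titles of both unstimulated libraries also carry the word ON, and no source used here says whether those cells were kept under light. The question of the comparison is which transcripts stand higher or lower at day 3 whichever way the pathway is switched on.

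In the canonical Wnt pathway, a ligand such as Wnt3a binds a Frizzled receptor and an LRP co-receptor, and the complex that marks β-catenin for destruction is disarmed. β-catenin then builds up, enters the nucleus and acts with TCF and LEF factors on target genes. CHIR99021 enters below the receptors, by blocking the kinase GSK-3 of the destruction complex, and optoWnt clusters an LRP co-receptor tail under blue light. In the adult hippocampus the pathway is known for its part in the renewal of neural stem cells and in the birth of neurons.

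The deposited table gives genes by Ensembl ID and pairs no ID with a symbol, so the pathway's own targets, the stem cell label and markers of other cell types could not be checked, and no ID is given a role. At 3 d ON the CHIR99021 library had 4417181 reads, that of Wnt3a 4969526 and that of light 2421160, against 3845948 in wild-type and 5935681 in optoWnt unstimulated cells. Levels are given in CPM, counts scaled so that libraries of different depth can be compared, with TMM-adjusted totals. In the shallowest of the 5, the light library, 0 counts are compatible with as much as 1.2 CPM, and in the deepest with 0.513 CPM, counting error only. No exact combination of genotype, inducer and day has more than 1 of the 20 libraries, and separate cultures are not mentioned in the labels. What the p-values measure is thus the spread between libraries left after terms for treatment profile, genotype and inducer. Inducer differences that are the same in all profiles are taken out of it, and those that change with profile stay in it. The light library also stood apart. Across all 20 libraries it was 1 of 6 with a score of -41.5 or lower on the first principal component of log2 CPM (29.4% of the variance), while the other 4 libraries of this comparison scored from 14 to 38.7.

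With all 3 inducers averaged, no single gene passed the test at day 3. Of 12190 genes tested, edgeR's quasi-likelihood test called 0, a share of 0%, with a smallest adjusted p of 0.13. At an unadjusted p under 0.05, 553 genes were higher (4.54%) and 478 lower (3.92%) in the 3 ON libraries than in the 2 unstimulated ones. DESeq2 called 98 higher (0.854% of the 11481 genes it tested) and 13 lower (0.113%). The edgeR count of 0 was also found with each of the 5 libraries left out in turn, while it was 54 without the low-count filter and 74 after the first component entered as a covariate.

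Each ON library taken alone had genes that stood apart from both unstimulated libraries, fewest under Wnt3a. Under CHIR99021, 929 genes (7.62%) stood at least 2-fold above the higher, and 1031 (8.46%) at least 2-fold below the lower, of both unstimulated libraries. Under light the numbers were 892 (7.32%) and 1310 (10.7%), and under Wnt3a 302 (2.48%) and 222 (1.82%). These are counts from 1 library per inducer, with no replicate check. Between the unstimulated libraries themselves, optoWnt stood at least 2-fold above wild-type for 851 genes (6.98%) and below it for 804 (6.6%). That count has only 1 reference library to pass, so it is easier to meet. Over all genes, the Wnt3a library had a Pearson's r of log2 CPM of 0.971 with wild-type unstimulated cells, higher than the 0.96 between both unstimulated libraries. The CHIR99021 and light libraries had an r of 0.843 with each other, the lowest of the 10 pairs. No pair of these libraries agreed within sampling noise (chi-square over degrees of freedom of 16.1 or more).

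Few genes met this rule under all 3 inducers. In all 3 ON libraries, 68 genes (0.558% of the 12190) stood at least 2-fold above both unstimulated libraries and 16 (0.131%) at least 2-fold below both. They make up 22.5% of the genes above and 7.21% of those below under Wnt3a, 7.32% and 1.55% under CHIR99021, and 7.62% and 1.22% under light. These 84 genes were chosen by their values in these 5 libraries, so their day 3 differences describe the choice and are not tested on it. Without any required fold, 1201 genes had all 3 ON libraries above both unstimulated ones (9.85%) and 1206 had them below (9.89%). Shares of about this size would arise by order alone in 5 libraries with no difference between the arms. At 4-fold, 14 genes remained on the higher side and 0 on the lower side. The threshold cuts through a continuous range, since 117 genes had a smallest difference of 1.5- to 2-fold on the higher side, against 54 of the 68 between 2- and 4-fold. The member nearest the threshold had a smallest log2 difference of 1.01, and the nearest gene outside it 0.99. On the lower side 76 genes lay between 1.5- and 2-fold.

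The light library took part in this choice, and the rule applied to CHIR99021 and Wnt3a alone gave 177 higher and 118 lower genes. Leaving out CHIR99021 gave 91 and 27, and leaving out Wnt3a 169 and 166. With the optoWnt unstimulated library alone as reference the numbers were 302 and 240, and with the wild-type one alone 152 and 37. Dropping a library can only add genes under this rule.

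The 68 higher genes were mostly faint without a stimulus. Their median level over genes was 15.6 CPM in the ON libraries, with a range of 1.89 to 1090 CPM, and 1.32 CPM in the unstimulated libraries, with a range of 0 to 69.8 CPM. There were 0 counts in both unstimulated libraries for 5 of them, and 50 had a mean of at least 5 CPM in the ON arm. A mean of 100 CPM or more was reached by 9 of the 68 under stimulation and by 0 without it. The model's log2 fold changes ran from 1.37 to 6.86 with a median of 2.85, beside a median of -0.01 over all genes tested. The adjusted p of the 68 ran from 0.13 to 0.826 (edgeR), so none was called, while 55 had an unadjusted p under 0.05. DESeq2 gave an adjusted p for 60 of them and called 32, from the same libraries that chose them.

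The inducers did not lift these genes alike. Relative to the mean of both unstimulated libraries, the 68 had a median log2 difference of 3.11 under CHIR99021, 1.97 under light and 1.68 under Wnt3a. CHIR99021 gave the highest level for 45 genes, light for 18 and Wnt3a for 5. The lowest of the 3 levels was under Wnt3a for 34 genes, under light for 26 and under CHIR99021 for 8. With 1 library per inducer, this order was not tested. Summed over the 68 genes, the level was 6680 CPM under CHIR99021, 3870 CPM under Wnt3a and 3210 CPM under light, against 395 CPM in wild-type and 392 CPM in optoWnt unstimulated cells. A single gene, ENSRNOG00000002331, made up much of the sum under Wnt3a and light. Without it the sums were 6370, 2070 and 2060 CPM, against 390 and 385 CPM.

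**Figure D1:**
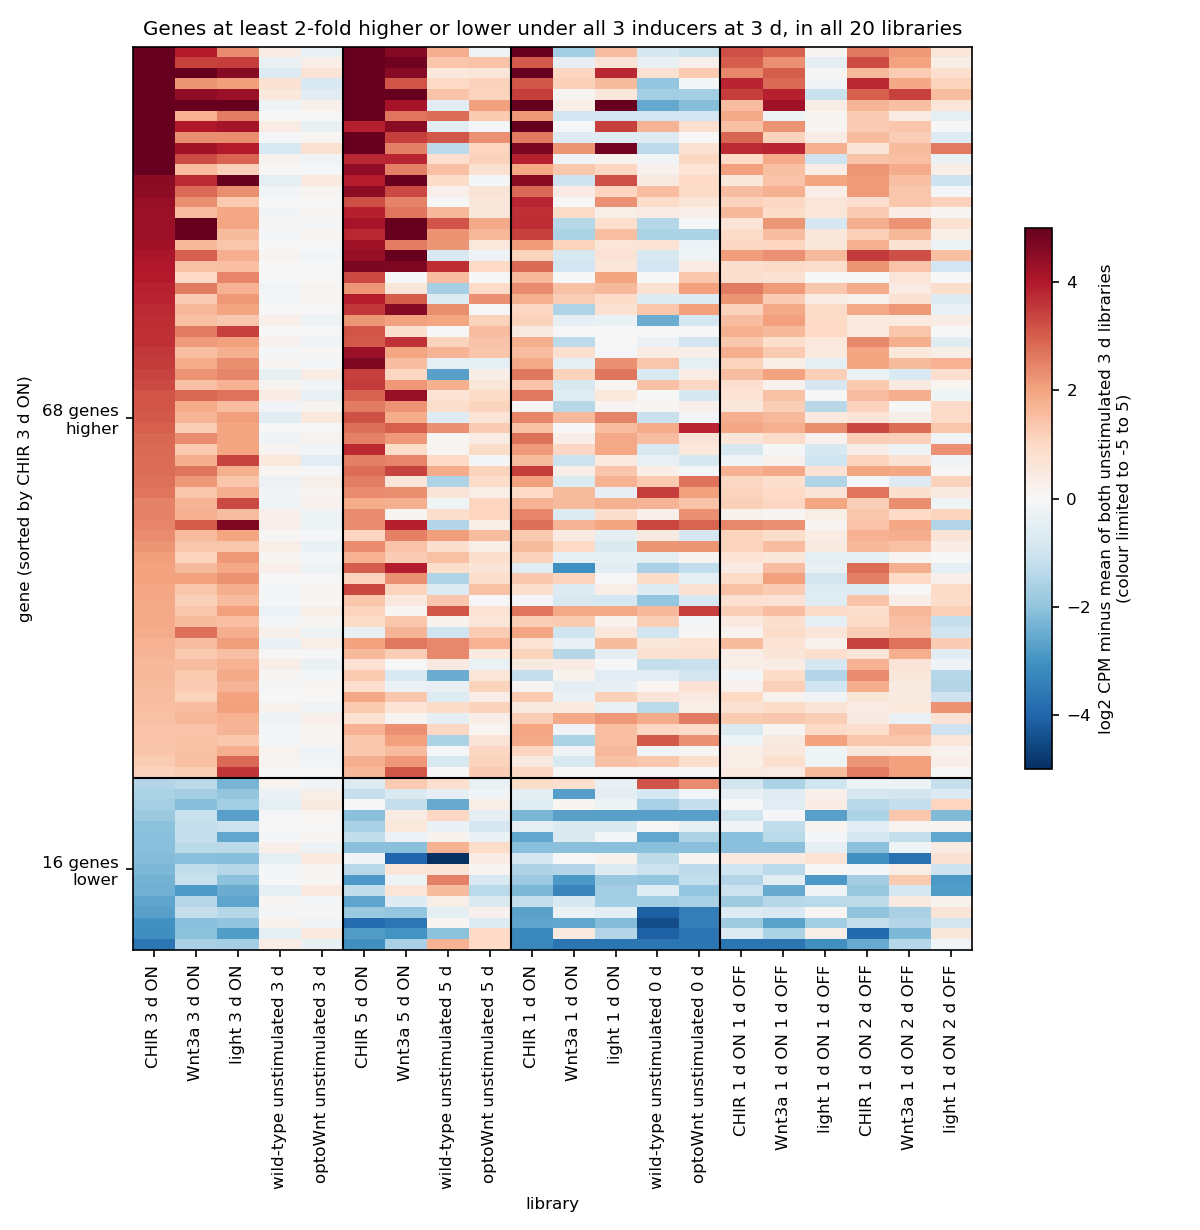
Log2 CPM of each of the 84 chosen genes (rows) in each of the 20 libraries (columns), minus the gene's mean over both unstimulated 3 d libraries. Red is above that mean and blue below it. The left block holds the 5 libraries that chose the genes, where all 68 higher genes are red under the 3 inducers. The second block shows that most of them are also red at 5 d ON, with medians of 2.98 under CHIR99021 and 2.31 under Wnt3a. Unstimulated 5 d libraries are also above that 3 d mean, with medians of 0.85 in wild-type and 0.90 in optoWnt cells.

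ENSRNOG00000002331 had the widest gap of the named rule. It stood at 307 CPM under CHIR99021, 1800 CPM under Wnt3a and 1150 CPM under light, against 4.5 CPM in wild-type and 6.84 CPM in optoWnt unstimulated cells. The lowest ON value was 41.6-fold above the highest unstimulated one on the log2 CPM scale with its prior count. Its means were 1090 ± 748 CPM at 3 d ON and 5.67 ± 1.65 CPM unstimulated (SD, n = 3 and 2), and edgeR estimated a log2 fold change of 6.86 with an SE of 1.85 (adjusted p = 0.326). Without the optoWnt unstimulated library the estimate was 5.41 (adjusted p = 0.813). Here the 3 inducers differed widely, with Wnt3a and light far above CHIR99021, in contrast to most of the other genes.

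ENSRNOG00000060863 stood at 210 CPM under CHIR99021, 106 CPM under Wnt3a and 66.4 CPM under light, against 1.25 CPM in wild-type and 4.1 CPM in optoWnt unstimulated cells. The arms are far apart, and CHIR99021 was the highest. Its means were 127 ± 74.4 CPM and 2.68 ± 2.02 CPM (SD, n = 3 ON and 2 unstimulated), and edgeR estimated a log2 fold change of 5.10 with an SE of 1.00 (adjusted p = 0.14). DESeq2 called both of these genes (adjusted p of 0.001 for ENSRNOG00000002331 and 5.83e-06 for ENSRNOG00000060863), and edgeR called both with no low-count filter (adjusted p of 0.00456 and 0.000722).

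The 16 lower genes were scarce under stimulation. Their median level was 0.588 CPM in the ON libraries, with a range of 0.245 to 181 CPM, and 4.23 CPM in the unstimulated libraries, with a range of 1.81 to 556 CPM. Only 8 of the 16 had a mean of at least 5 CPM without a stimulus. Their log2 fold changes ran from -3.70 to -1.45, with a median of -2.72. All had an edgeR adjusted p of 0.326 or more, and DESeq2 called 0 of the 13 to which it gave an adjusted p. The median log2 difference from unstimulated cells was -2.20 under CHIR99021, -2.03 under light and -1.38 under Wnt3a. The lowest level was under CHIR99021 for 10 of the 16, counting 1 gene with 0 reads under both CHIR99021 and light, under light alone for 4 and under Wnt3a for 2. That median ON level is under the 1.2 CPM that 3 counts amount to in the light library, so such folds are loosely fixed.

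ENSRNOG00000054091 stood at 0.447 CPM under CHIR99021, 0.184 CPM under Wnt3a and 0.4 CPM under light, against 3.25 CPM in wild-type and 6.84 CPM in optoWnt unstimulated cells. These are 4 counts over the 3 ON libraries and 53 over both unstimulated ones, a ratio of 0.0599 with an exact 95% interval of 0.0157 to 0.163 from counting alone. On the log2 scale edgeR estimated -3.44 with an SE of 1.24 (adjusted p = 0.464). Without the optoWnt unstimulated 3 d library this estimate was -0.59. The remaining wild-type library, at 3.25 CPM, still stood above all 3 ON values. In that fit the model's genotype term rests on 0 and 5 d alone and is applied to this wild-type library. At 0 and 5 d the gene stood at 2.89 and 15.5 CPM in wild-type and at 0.852 and 1.53 CPM in optoWnt unstimulated cells. Leaving out the wild-type unstimulated 3 d library instead gave an estimate of -4.24. Over its 13 alternatives the adjusted p ran from 0.0493, with the first component as a covariate, to 0.997.

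ENSRNOG00000010263 stood at 0.895 CPM under CHIR99021, 2.2 CPM under Wnt3a and 2.4 CPM under light, against 12.8 CPM in wild-type and 9.74 CPM in optoWnt unstimulated cells. Its means were 1.83 ± 0.818 CPM at 3 d ON and 11.2 ± 2.13 CPM unstimulated (SD, n = 3 and 2), with an edgeR estimate of -2.47 on the log2 scale and an SE of 0.69 (adjusted p = 0.326). All 3 inducers left it well below both unstimulated libraries, and the pooled ratio was 0.162 with an exact 95% interval of 0.0972 to 0.257 from counting alone.

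**Figure D2:**
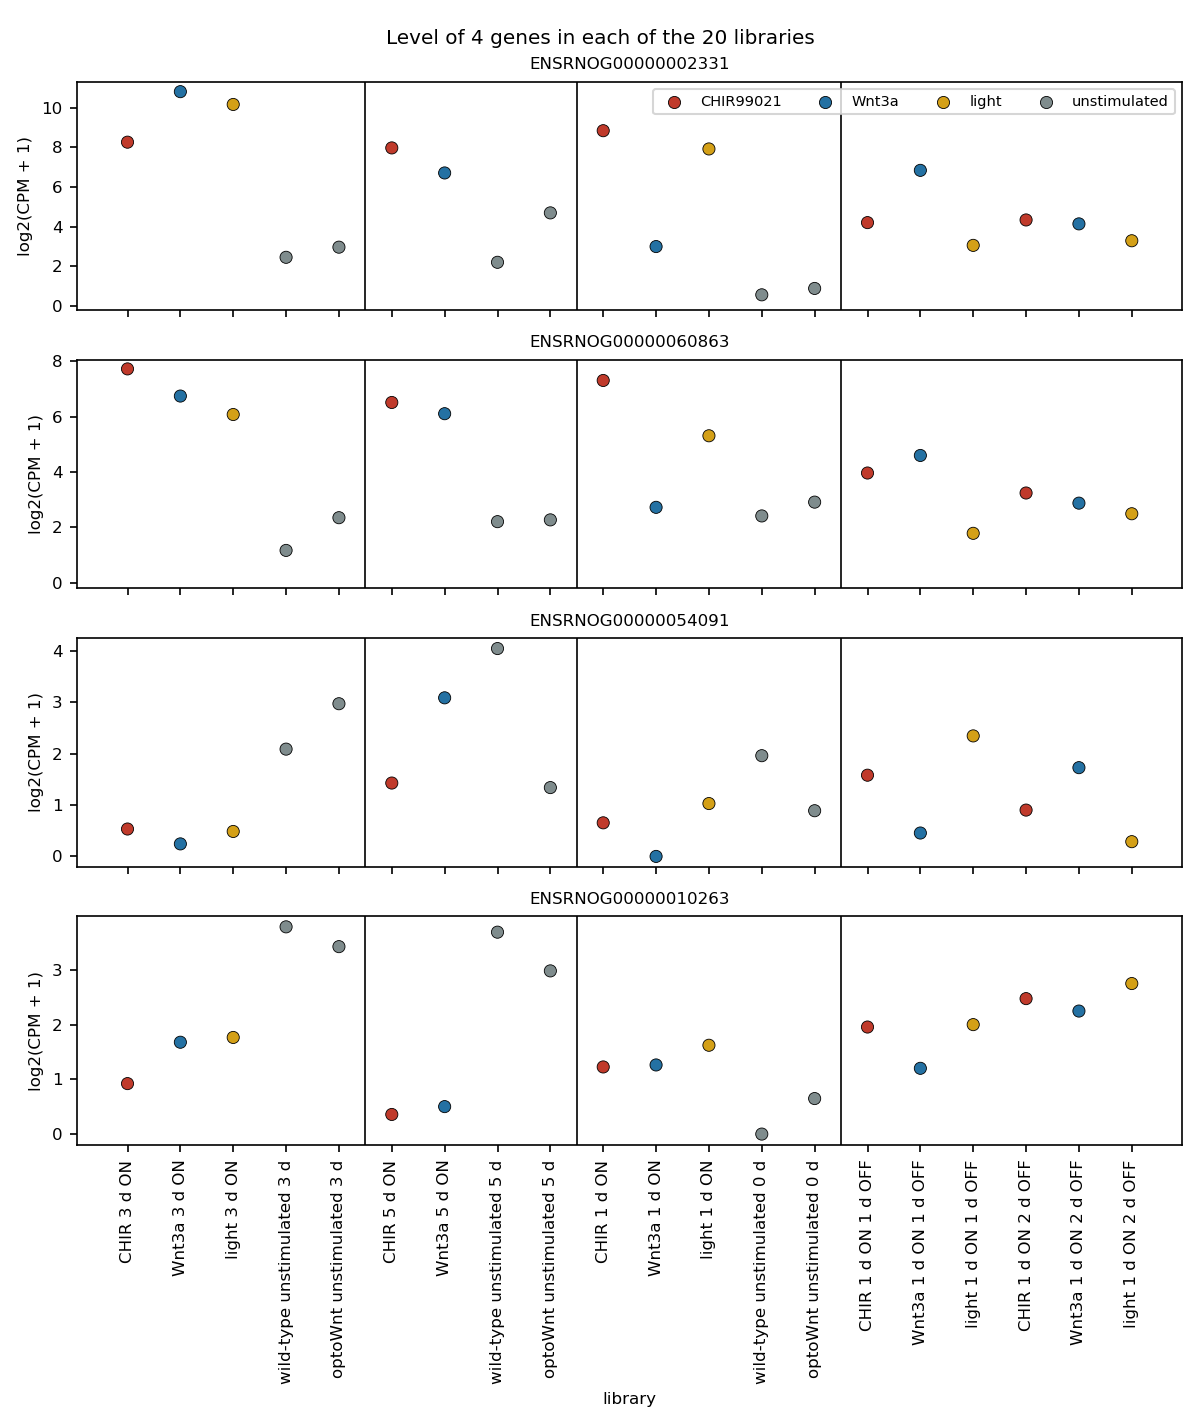
Level of the 4 named genes as log2(CPM + 1), 1 point per library, coloured by inducer, with stimulated libraries left of the unstimulated ones in each of the first 3 blocks. Both genes of the upper panels stand high in all 3 libraries of 3 d ON and both of 5 d ON, while ENSRNOG00000054091 overlaps between the arms at 5 d.

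The 4 libraries of day 5 took no part in choosing the genes and give the same contrast 2 d later, under CHIR99021 and Wnt3a (light at 5 d was not analysed here). Of the 68 higher genes, 48 had both 5 d ON libraries above both unstimulated 5 d libraries, where 14.7% of all 12190 genes did, and 0 had both below. At least a 2-fold gap was seen for 28 of the 68, beside 1.75% of all genes. Of the 16 lower genes, 6 had both 5 d ON libraries below both unstimulated ones (13.1% of all genes), 4 of them at least 2-fold (1.61%), and 0 had both above. These shares are given as a description, with no test over the list.

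In the edgeR fit of the 15 libraries without those of the day 3 comparison, 61 of the 68 passed the filter on low counts. With no light library at 5 d, the model's 5 d ON level takes the difference of light from other profiles. The log2 fold change of 5 d ON over unstimulated 5 d was positive for 57 of the 61 and negative for 4, with a median of 1.92, beside a positive share of 48.4% and a median of -0.03 over the 11977 genes tested. An unadjusted p under 0.05 was reached in the same direction by 28 (4.2% of all genes higher at that p), but 0 were called, with a smallest adjusted p of 0.179. All 16 lower genes passed that filter. Of these, 13 had a negative fold change, with a median of -1.26. An unadjusted p under 0.05 was reached downward by 5 (4.28% of all genes), and 0 were called, with a smallest adjusted p of 0.29. Over all genes the fit called 2 (0.0167%), neither of them among the 84. DESeq2 called 9 of the 68 higher and 0 of the 16 lower at 5 d, beside 53 genes higher and 53 lower of 10816 (0.49% each). Without the low-count filter, edgeR called 14 of the 68 higher (0.405% of 19751 genes) and 1 of the 16 lower (0.435%). Leaving out any of the 4 libraries of day 5 kept the median of the higher genes between 1.57 and 1.79 and that of the lower genes between -1.52 and -1.19.

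Library by library, CHIR99021 at 5 d had 44 of the 68 higher genes at least 2-fold above both unstimulated 5 d libraries (6.28% of all genes) and Wnt3a at 5 d had 35 (11%). Neither had any of the 68 at least 2-fold below. For the 16 lower genes, 8 were at least 2-fold below both under CHIR99021 (7.47% of all genes) and 4 under Wnt3a (10.1%). Wnt3a 5 d ON and wild-type unstimulated 5 d were 2 of the 6 libraries with low first component scores. With both left out, CHIR99021 at 5 d stood at least 2-fold above optoWnt unstimulated 5 d for 52 of the 68 (9.25% of all genes) and at least 2-fold below it for 10 of the 16 (11.6%).

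At 5 d the named genes of the higher group kept a gap between the arms. ENSRNOG00000002331 stood at 251 CPM under CHIR99021 and 104 CPM under Wnt3a, against 3.62 CPM in wild-type and 25 CPM in optoWnt unstimulated cells (log2 fold change 2.51, SE 1.64, edgeR adjusted p = 0.715). ENSRNOG00000060863 stood at 90.1 and 67.8 CPM under CHIR99021 and Wnt3a, against 3.62 and 3.83 CPM in wild-type and optoWnt unstimulated cells (log2 fold change 3.75, SE 1.18, edgeR adjusted p = 0.392). Neither gene's arms overlapped, and neither was called.

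The named genes of the lower group parted at 5 d. ENSRNOG00000010263 stood at 0.282 and 0.416 CPM under CHIR99021 and Wnt3a, against 11.9 and 6.9 CPM in wild-type and optoWnt unstimulated cells (log2 fold change -4.41, SE 1.14, edgeR adjusted p = 0.29). ENSRNOG00000054091 stood at 1.69 and 7.49 CPM under CHIR99021 and Wnt3a, against 15.5 and 1.53 CPM in wild-type and optoWnt unstimulated cells, so its arms overlapped (log2 fold change 1.07, SE 1.43, edgeR adjusted p = 0.858). This model estimate is positive, while the mean CPM was lower at 5 d ON (4.59) than in unstimulated 5 d cells (8.53). Whether the effect differed between 3 and 5 d was tested in the fit of all 20 libraries. Of 12190 genes, 0 were called (smallest edgeR adjusted p 0.904, 621 with an unadjusted p under 0.05). Of the 84 chosen genes, 10 had an unadjusted p under 0.05 in this edgeR test, but their 3 d values chose them. With light at 3 d only and few libraries per day, a count of 0 does not show equal effects on both days.

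**Figure D3:**
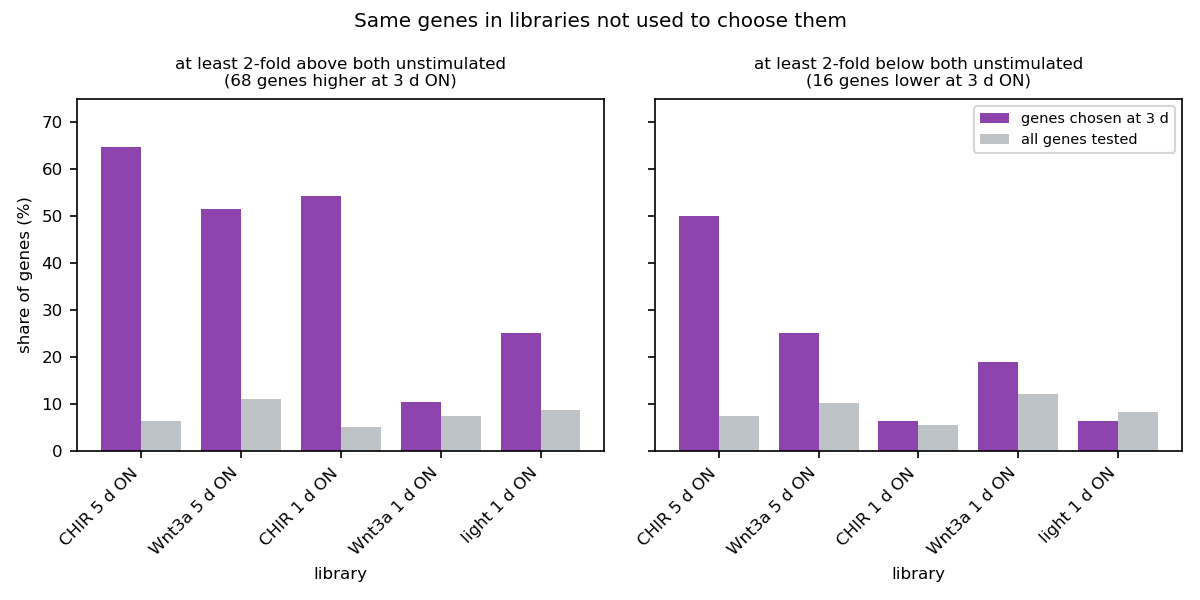
Share of the chosen genes (purple) and of all 12190 genes (grey), in percent, at least 2-fold above (left) or below (right) both unstimulated libraries, in 5 stimulated libraries that took no part in the choice. The 5 d libraries are set against unstimulated 5 d and the 1 d libraries against unstimulated 0 d. The widest gap between the bars is at CHIR 5 d ON (64.7% against 6.28%) and the narrowest of the left panel at Wnt3a 1 d ON (10.3% against 7.33%).

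After 1 d of stimulus the levels of these genes depended on which library was looked at. An unstimulated library of day 1 was not analysed here, so the 1 d ON libraries were set against unstimulated 0 d, where day and stimulus change together. Of the 68 higher genes, 37 were at least 2-fold above both 0 d libraries under CHIR99021 (4.96% of all genes), 17 under light (8.68%) and 7 under Wnt3a (7.33%), while 1 was at least 2-fold below under CHIR99021 (5.4%), 3 under light (8.27%) and 13 under Wnt3a (12%). The Wnt3a library of 1 d was the shallowest of the 20, with 696463 reads and a floor of 4.21 CPM. For the 16 lower genes, 1 was at least 2-fold below both 0 d libraries under CHIR99021 (5.4% of all genes), 3 under Wnt3a (12%) and 1 under light (8.27%). In the opposite direction, 0 of the 16 were at least 2-fold above both 0 d libraries under CHIR99021 (4.96%), 3 under Wnt3a (7.33%) and 4 under light (8.68%). The log2 fold change of 1 d ON over unstimulated 0 d was positive for 10 of the 16, with a median of 0.36. That reference was already low for most of the 16 genes, and whether this limited a further fall was not tested. Relative to unstimulated 3 d, which chose the genes, their median log2 level was -1.84 in wild-type and -1.58 in optoWnt cells of 0 d. It was -1.96, -1.14 and -1.10 after 1 d of CHIR99021, Wnt3a and light. Averaged over inducers, edgeR called 0 of the 61 higher and 0 of the 16 lower genes tested between 1 d ON and unstimulated 0 d, beside 20 higher (0.167%) and 27 lower (0.225%) among all genes.

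Both named genes of the higher group had that order of inducers at 1 d, with CHIR99021 the highest and Wnt3a the lowest. ENSRNOG00000002331 stood at 459 CPM under CHIR99021, 242 CPM under light and 7.01 CPM (5 counts) under Wnt3a, against 0.482 and 0.852 CPM in wild-type and optoWnt unstimulated cells of 0 d. ENSRNOG00000060863 stood at 157, 38.6 and 5.61 CPM under CHIR99021, light and Wnt3a, against 4.33 and 6.53 CPM in wild-type and optoWnt unstimulated cells. Wnt3a at 1 d was thus near or within the 0 d values for ENSRNOG00000060863, while CHIR99021 and light lay above them. ENSRNOG00000010263 stood at 1.34, 2.08 and 1.4 CPM under CHIR99021, light and Wnt3a, against 0 and 0.568 CPM in wild-type and optoWnt unstimulated cells. These are 7, 4 and 1 counts against 0 and 2, too few to fix a direction.

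Most of the lower genes also stood low in unstimulated cells of 0 d, relative to those of 5 d. In the fit of the 15 libraries, without any stimulus, the log2 fold change of 5 d over 0 d was positive for 13 of the 16, with a median of 2.41, beside 49.8% and a median of -0.01 over all genes. edgeR called 3 of the 16 higher at 5 d (2.47% of all genes) and 0 lower (1.11%). Relative to unstimulated 5 d, their median log2 level was -2.01 in wild-type and -1.87 in optoWnt cells of 0 d, -2.48, -1.47 and -2.34 after 3 d of CHIR99021, Wnt3a and light, and 0.01 and 0.16 in wild-type and optoWnt unstimulated cells of 3 d. The 3 d values chose the genes. ENSRNOG00000010263 followed this course, at 11.9 and 6.9 CPM in wild-type and optoWnt unstimulated cells of 5 d and 0 and 0.568 CPM in those of 0 d.

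The higher genes had no single course over time without a stimulus. The log2 fold change of 5 d over 0 d was positive for 35 of the 61 tested and negative for 26, with a median of 0.65. edgeR called 2 higher (2.47% of all genes) and 1 lower (1.11%). Their summed level was 813 and 652 CPM at 5 d, 395 and 392 CPM at 3 d and 731 and 622 CPM at 0 d, in wild-type and optoWnt unstimulated cells each time. The 3 d libraries were thus the lowest of the 6, and these are the libraries that the choice required to be low.

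**Figure D4:**
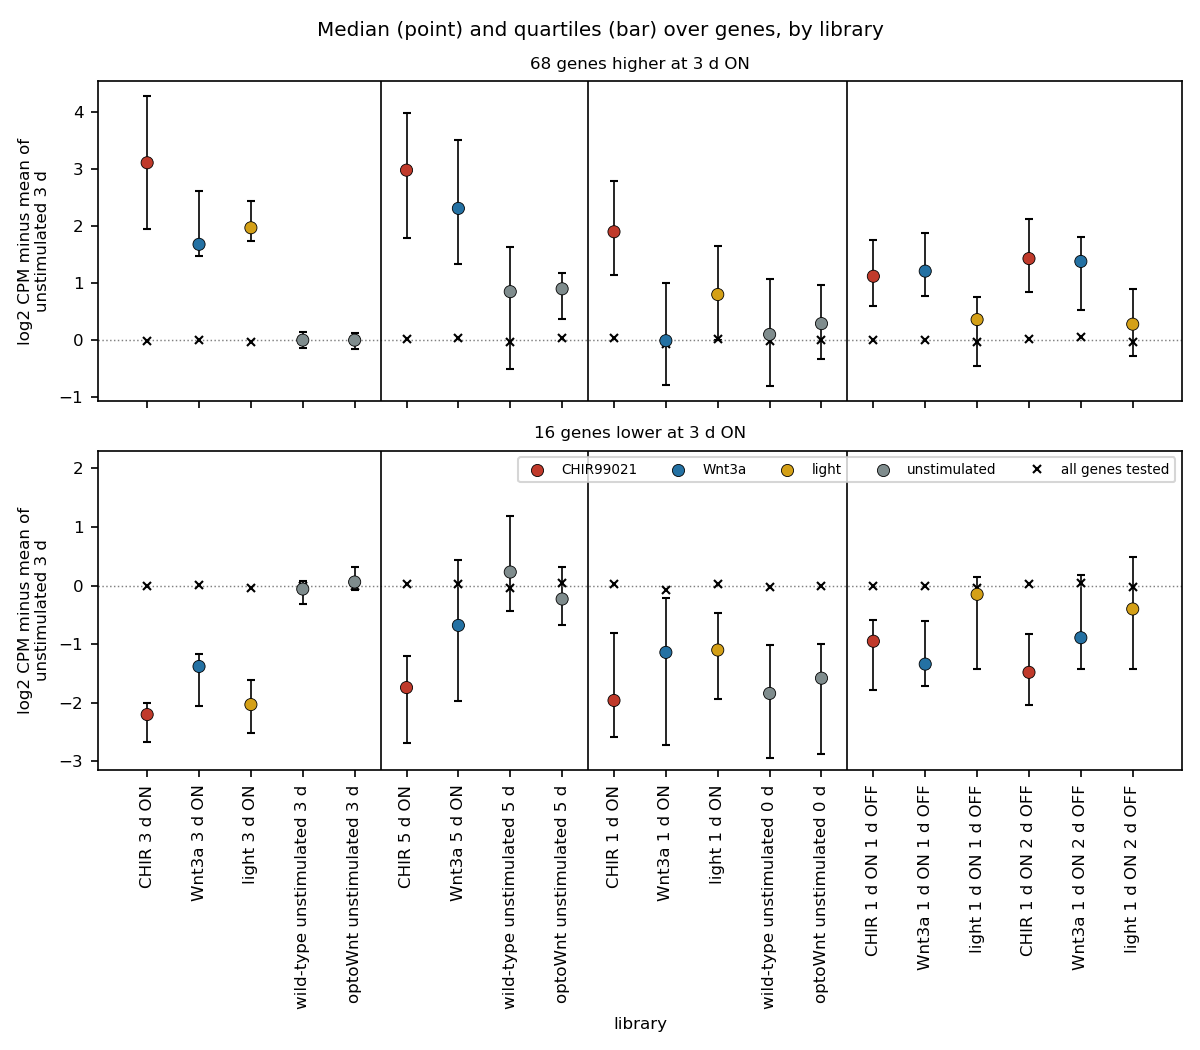
Median over the 68 higher (top) and 16 lower genes (bottom) of log2 CPM minus the mean of both unstimulated 3 d libraries, by library, with bars from the lower to the upper quartile over genes and crosses for the median of all genes tested. The higher genes stand at 3.11, 1.68 and 1.97 under CHIR99021, Wnt3a and light at 3 d, and at 0.85 and 0.90 in wild-type and optoWnt unstimulated cells of 5 d.

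Unstimulated cells of both genotypes can be compared at 0 and 5 d, days that took no part in the choice. The median log2 difference of optoWnt from wild-type unstimulated cells over the 68 genes was 0.18 at 5 d and 0.10 at 0 d, beside 0.06 and 0.00 over all genes. At 5 d, 19 of the 68 were at least 2-fold higher in optoWnt cells (23.9% of all genes) and 13 at least 2-fold lower (16.5%). At 0 d the numbers by the same rule were 18 higher (15.8%) and 5 lower (9.56%) in optoWnt cells. All ON libraries are from optoWnt cells, and genotype enters the edgeR model as a term of its own. ENSRNOG00000002331 stood at 25 CPM in optoWnt and 3.62 CPM in wild-type cells at 5 d, and at 0.852 and 0.482 CPM in optoWnt and wild-type cells at 0 d. In the 3 d libraries, which the choice required to be low in both genotypes, it stood at 6.84 CPM in optoWnt and 4.5 CPM in wild-type cells. Light on the unstimulated optoWnt cells, if it was given, cannot be told apart from genotype here.

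In cells of the same day that had the stimulus for 1 d followed by 2 d without it, the higher genes summed to a level between those of 3 d ON and no stimulus. The summed level of the 68 genes at day 3 was 6680 CPM under constant CHIR99021 and 1360 CPM after its withdrawal, 3870 and 886 CPM for Wnt3a, and 3210 and 448 CPM for light, against 395 and 392 CPM in wild-type and optoWnt unstimulated cells. At least 2-fold more at 3 d ON than after withdrawal was seen under CHIR99021 in 47 of the 68 (16.7% of all genes), under Wnt3a in 32 (18.9%) and under light in 49 (19.1%). After withdrawal of light 34 of the 68 were no higher than the higher unstimulated library, and after that of CHIR99021 and Wnt3a 6 and 7 were. The share over all genes was not computed for these counts, so they have no background beside them. The withdrawn CHIR99021 and Wnt3a libraries, unlike that of light, belong to the 6 libraries that stood apart on the first component, and the part of this in the difference was not tested. The ON values chose the genes, so no test was made.

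With constant CHIR99021, Wnt3a and light, ENSRNOG00000002331 had 307, 1800 and 1150 CPM at day 3. Once each had been withdrawn for 2 d it had 19.3, 16.7 and 8.81 CPM. All 3 withdrawn values were far below the ON values of the same inducer and above the unstimulated 4.5 and 6.84 CPM, with that of light the nearest to them. ENSRNOG00000060863 had 210, 106 and 66.4 CPM with constant stimulus and 8.46, 6.34 and 4.63 CPM once it was withdrawn, in the same order of inducers. ENSRNOG00000010263, of the lower group, had 0.895, 2.2 and 2.4 CPM with constant stimulus and 4.56, 3.75 and 5.73 CPM once it was withdrawn, between the ON libraries and the unstimulated 12.8 and 9.74 CPM. ENSRNOG00000054091 did not follow this for light. It had 0.447, 0.184 and 0.4 CPM with constant CHIR99021, Wnt3a and light and 0.868, 2.31 and 0.22 CPM (1 to 8 counts) once each was withdrawn, against 3.25 and 6.84 CPM in wild-type and optoWnt unstimulated cells. The 16 lower genes summed to 136, 320 and 268 CPM with constant CHIR99021, Wnt3a and light and to 193, 256 and 1270 CPM after withdrawal, against 750 and 944 CPM in wild-type and optoWnt unstimulated cells. The sum was thus lower after withdrawal of Wnt3a than with it kept on, and after withdrawal of light above both unstimulated libraries. ENSRNOG00000013656 and ENSRNOG00000062143, with unstimulated 3 d means of 556 and 208 CPM, made up much of these sums. Gene by gene, 13, 12 and 13 of the 16 stood higher after withdrawal of CHIR99021, Wnt3a and light than with each kept on. After these withdrawals, 0, 6 and 8 of the 16 were no lower than the lower unstimulated library. The shares over all genes were not computed for these counts, so they have no background beside them. Over the 16 lower genes, the level was at least 2-fold lower at 3 d ON than after withdrawal for 7 under CHIR99021 (15.8% of all genes), 8 under Wnt3a (17.2%) and 11 under light (20.2%).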

How the data were processed

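Lexogen's QuantSeq kit, which reads messenger RNA from its 3' end, was used for all 20 libraries, per the labels' protocols. The authors deposited whole-number read counts per gene and well, with no normalization, covering 32623 Ensembl IDs. Bowtie2, Subread, featureCounts and the build Rnor_6.0 are named in the submitters' processing notes. Versions, strand setting and the treatment of reads with several matches are not given there, so reads of near-identical or overlapping genes may be counted for the wrong one. Wells were tied to libraries through the well named in each sample description, which covered all 20.

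Genes were tested with edgeR 4.0.16 (quasi-likelihood, R 4.3.3) after TMM scaling and filterByExpr by treatment profile, which kept 12190 genes. One additive model held profile, genotype and inducer and used all 20 libraries (11 coefficients, 9 residual degrees of freedom). The Benjamini-Hochberg adjustment ran over all genes kept, and a gene is called where its adjusted p is under 0.05. Inducer was coded to sum to 0, which makes each profile estimate an average of the inducers. An SE was obtained from the log2 fold change and the F statistic. CPM values use TMM-scaled library sizes, and log2 CPM a prior count of 2. Contrasts in the 15 libraries outside the day 3 comparison came from a separate fit of the same form (11977 genes, 6 residual degrees of freedom), since those libraries took no part in choosing genes. The scripts were tested on simulated data with known changes. High recovery was required only at a spread between libraries far below that of these data. It therefore does not show how many true changes the day 3 test would miss.

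The genes and settings were chosen with earlier results of these data known. The day 1 and day 0 contrasts of the 15-library fit were added after the data were seen. The gene table used here (assembly GRCr8) matched 0 of the IDs to a symbol, so the 16 planned gene lists were not run. IDs are named by a rule that needs no symbol. Of the genes at least 2-fold beyond both unstimulated libraries in all 3 ON libraries, with a mean of at least 5 CPM in the higher arm, these are the 2 per direction with the largest smallest fold. Alternatives were DESeq2 1.42.0, RLE scaling, no low-count filter, other covariates and each library left out.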

Additional observations from a re-analysis of the deposited data

How the results depend on the processing

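With edgeR, 0 genes were called at 3 d under RLE scaling, in a fit of the 5 libraries alone, without the wild-type libraries, without the inducer term, with each of the 5 libraries left out (lowest and highest count both 0; 558 to 1354 genes with an unadjusted p under 0.05) and without the 6 libraries of low first component score, an alternative added after the data were seen. DESeq2 called 111, edgeR without the low-count filter 54, and 74 after the first component was added to the model. The 68 genes higher under all inducers were 72 under RLE scaling, 95 with a prior count of 0.5, 81 with no low-count filter, 1201 with no fold required and 14 at 4-fold. The 16 lower genes were 15, 34, 24, 1206 and 0 under the same settings. With 1 of the 5 libraries left out, the higher genes numbered 91 to 302 and the lower genes 27 to 240, since fewer libraries make the rule looser. The 2 calls at 5 d became 106 with DESeq2, 166 with no low-count filter and 0 to 42 with 1 of the 4 libraries left out (0 without either unstimulated library, 42 without Wnt3a 5 d ON). In such fits a lone library is assumed to vary like the other groups. The log2 fold changes of the 4 named genes kept their sign in all 52 alternatives and passed the threshold in 6 of them, with an adjusted p from 5.83e-06 to 0.997. The sizes moved more, since without the optoWnt unstimulated 3 d library the estimate of ENSRNOG00000054091 was -0.59 in place of -3.44, and that of ENSRNOG00000002331 5.41 in place of 6.86. These genes were named for their wide gaps in the day 3 libraries, which the alternatives use again. A kept sign is thus no independent check. In the 15 libraries that did not choose it, ENSRNOG00000054091 had a positive estimate at 5 d (1.07). No paired analysis was possible because the labels give no replicate numbers. The alternatives planned for gene lists were not run, as no ID had a symbol. The depth limits low genes, since 3 counts in the light library of 3 d ON amount to 1.2 CPM.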
